A study of Mus musculus with 2207 samples.

Results

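A set of 8 chemokine genes was examined in single nuclei of mouse cortex: *Ccl12*, *Ccl2*, *Ccl3*, *Ccl4*, *Ccl6*, *Ccl9*, *Cxcl10* and *Cx3cl1*, drawn from the 52636 genes of the expression tables. They were selected by symbol after measured values of these nuclei had been seen (*Ccl12* had stood out in microglia), so their shares and levels by cell type and pool are given as a description. Expression was measured by RamDA-seq, a full-length single-cell RNA method, in 2207 nuclei, of which 1664 are labelled neurons, 397 oligodendrocytes and the rest microglia. Each of the 6 pools held nuclei of 3 C57BL/6 mice of 14 weeks of age that had received tamoxifen at 100 mg/kg, 2 times, from 3 weeks of age, in the control pools too. The 96-well plates held a WT pool and a pool labelled Ehmt1Δ/+, which lacks 1 copy of the gene for the histone methyltransferase GLP. In the 384-well plates, the labels give the WT and Ehmt1Δ/+ pools an inducible GLP transgene (Ehmt1 iTg) without the Cre driver, and the iTg and Ehmt1Δ/+; iTg pools the transgene with CamKII-CreER, a driver of forebrain neurons. The figure legends of the study give the driver to all 4, and this difference was not resolved. The mouse of origin of a nucleus is not given, so the pool is the unit of replication and nuclei are not replicates.

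Chemokines are small secreted proteins that guide the movement of leukocytes through G protein-coupled receptors. Microglia, the resident macrophages of the brain, make CC chemokines when they are activated, and macrophages at the borders of the brain make several of them too. *Cx3cl1* encodes fractalkine, a membrane-bound chemokine of neurons whose receptor, CX3CR1, is a marker of microglia.

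The families are named for the spacing of the first cysteines, shown here for 7 of the 8 genes because it separates the families before any level is compared. Each stretch is coding sequence of the GENCODE M21 transcript on mm10, 5′ to 3′, with the codons of the pair of cysteines in capitals.
Ccl12: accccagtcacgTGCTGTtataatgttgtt
Ccl2: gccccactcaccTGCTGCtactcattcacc
Ccl4: cctcccacttccTGCTGTttctcttacacc
Ccl6: acttcttcagacTGCTGCttctcttatgcc
Ccl9: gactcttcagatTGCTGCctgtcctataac
Cxcl10: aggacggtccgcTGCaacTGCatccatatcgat
Cx3cl1: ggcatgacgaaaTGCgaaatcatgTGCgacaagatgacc

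The codons touch in the 5 CC genes shown, stand 3 bases apart in *Cxcl10* and 9 bases apart in *Cx3cl1*. The CC genes lie in a cluster on chromosome 11, where *Ccl2* (ENSMUSG00000035385.5, 82035571 to 82037453) and *Ccl12* (ENSMUSG00000035352.3, 82101845 to 82103400) are 64.4 kb apart. *Ccl9* (ENSMUSG00000019122.8, 83572919 to 83578636), *Ccl6* (ENSMUSG00000018927.3, 83587882 to 83593087), *Ccl3* (ENSMUSG00000000982.5, 83647844 to 83649355) and *Ccl4* (ENSMUSG00000018930.3, 83662584 to 83664683) follow on the same chromosome. *Cxcl10* (ENSMUSG00000034855.13) is on chromosome 5 from 92346638 to 92348889, and *Cx3cl1* (ENSMUSG00000031778.13) on chromosome 8 from 94772009 to 94782427. The longest run of identical bases between transcripts of any pair of the 8 genes was 25 bases, between *Ccl6* and *Ccl9*, which is shorter than the 75-base reads. No stretch of 75 bases of *Ccl12*, *Ccl2*, *Ccl3*, *Ccl4*, *Ccl6*, *Ccl9* or *Cx3cl1* occurred in a transcript of another gene, whereas 2.47% of those of *Cxcl10* occurred in *Art3*, which overlaps it on the opposite strand.

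The labels and the depth were checked first. *Ehmt1* RNA was higher in the pools labelled Ehmt1Δ/+ than in their WT partners, reaching 25.1 RPKM where WT microglia had 16.8 RPKM (96-well plates) and 20.8 RPKM where they had 15.7 RPKM (384-well plates), a value that reads the whole gene and not the deleted part alone, so the directions below rest on the genotype labels. All 11 microglial markers measured, *P2ry12* and *Tmem119* among them, were higher in microglia than in neurons and oligodendrocytes of every pool. Read totals recovered from the RPKM steps had medians of 493359 and 510639 reads in microglia of the 96-well pools, and between 39940 and 51469 reads in those of the 384-well pools. A low transcript had therefore much less chance of a read in the 384-well plates. The 6 pools held 36, 32, 16, 19, 20 and 23 microglia, in the order WT and Ehmt1Δ/+ of the 96-well plates and WT, Ehmt1Δ/+, iTg and Ehmt1Δ/+; iTg of the 384-well plates, an order kept below.

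The 8 genes fell into a microglial set and a neuronal gene. Microglia held 99.9% of all reads of *Ccl12*, 99.1% of those of *Ccl3*, 99.7% of those of *Ccl4*, 94.97% of those of *Ccl6* and 89.04% of those of *Ccl9*. Neurons held 99.3% of the reads of *Cx3cl1*. *Ccl2* had 27 reads in all and *Cxcl10* 15.5 reads, which is too few for a pattern. The plot of mean levels shows this split.

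**Figure D1:**
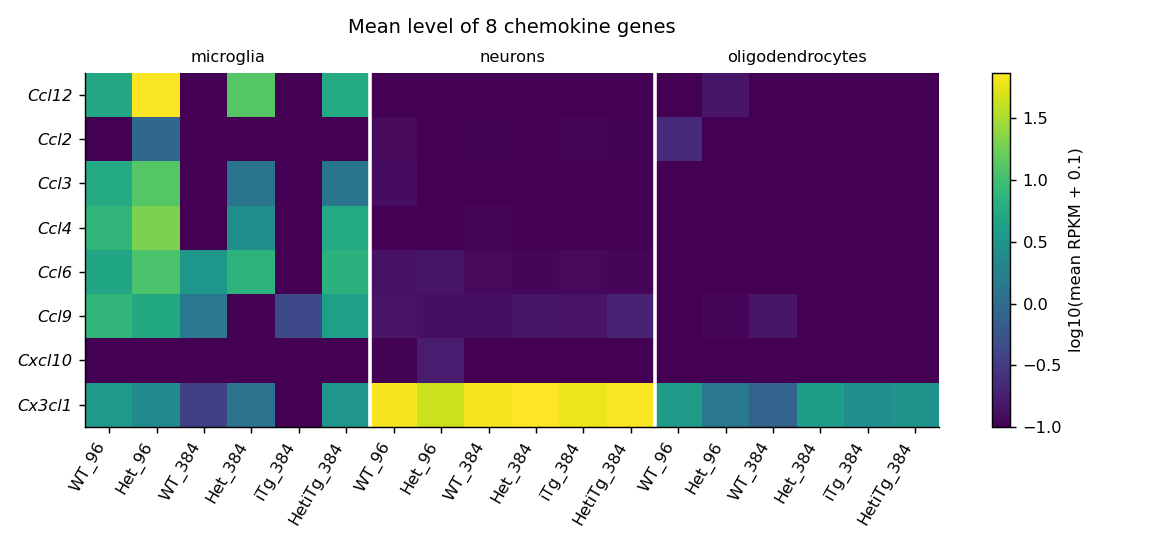
Mean RPKM of the 8 chemokine genes (rows) in the 18 sets of cell type label and pool (columns), coloured by log10(mean RPKM + 0.1). The 5 CC genes with reads in several pools are bright only in microglia, and *Cx3cl1* is bright in neurons of all 6 pools.

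*Ccl12*, also called MCP-5, is a monocyte-attracting chemokine that binds CCR2. It was above 0 in 6 of 36 microglia of WT and 13 of 32 of the pool labelled Ehmt1Δ/+ in the 96-well plates, or 16.7% (exact Clopper-Pearson 95% interval 6.37 to 32.8) and 40.6% (23.7 to 59.4). In the 384-well pools it was above 0 in 0 of 16, 2 of 19, 0 of 20 and 1 of 23 microglia. The 3 pools that carry the Ehmt1Δ/+ label thus each held positive nuclei, while of the other 3 only the 96-well WT pool did. The counts of 0 allow shares of up to 18.8% (WT) and 15% (iTg), so at this depth no difference between the 384-well pools was detectable. Such intervals and limits cover counting error only.

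The mean level of *Ccl12* in microglia was 5.28, 71.7, 0, 12.7, 0 and 5.59 RPKM in the 6 pools. Few nuclei set these means. In the 96-well WT pool the highest nucleus was at 102.25 RPKM (32 reads) and the other 5 carried between 1 and 9 reads. In the pool labelled Ehmt1Δ/+ the highest nuclei were at 1594 RPKM (498 reads), 402.45 RPKM, 86.5 RPKM, 73.3 RPKM and 51.4 RPKM, and the other 8 carried 7 reads or fewer. A single nucleus held 68.7% of the 725 reads of that pool. Without the nucleus of the highest RPKM in each pool the means were 2.51 and 22.6 RPKM, and the log2 ratio of Ehmt1Δ/+ to WT (after adding 0.1) was 3.12 in place of 3.74. The groups overlapped, since 19 of the 32 nuclei labelled Ehmt1Δ/+ had no *Ccl12* read, as did 30 of 36 WT nuclei. Outside microglia, *Ccl12* had 1 read, in 1 oligodendrocyte.

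**Figure D2:**
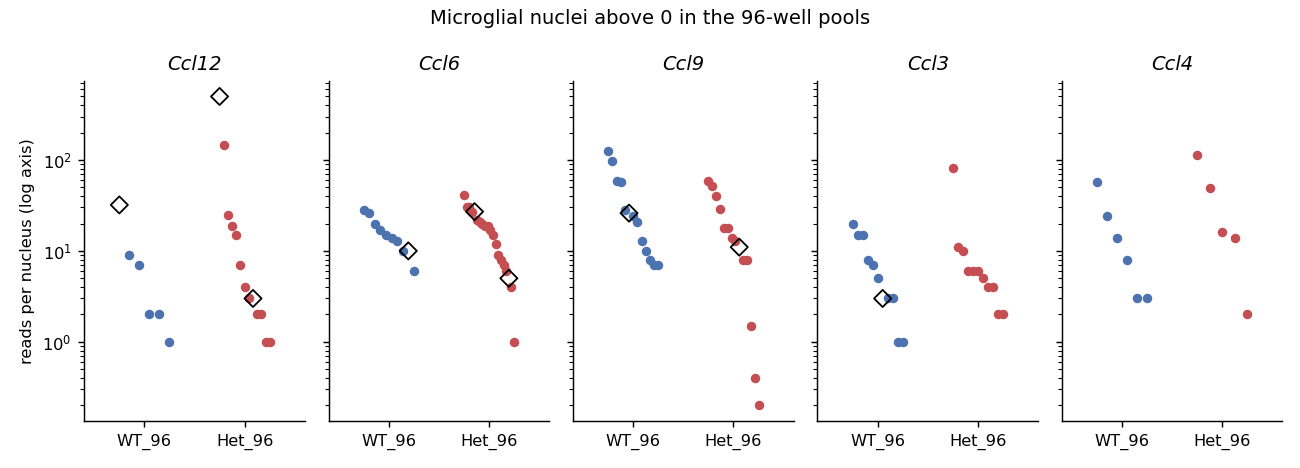
Reads per microglial nucleus (log axis) of 5 chemokine genes in the 96-well pools, each point a nucleus above 0, ordered by value. Open diamonds are nuclei with 2 or more border macrophage markers, among them the one with 498 *Ccl12* reads.

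The nucleus with 498 *Ccl12* reads was above 0 for 7 of 7 markers of border macrophages, with *Mrc1* at 841 RPKM, *Cd163* at 738 RPKM and *Cbr2* at 306.9 RPKM. Of the microglial markers measured, it had *Ctss* at 199.9 RPKM, *P2ry12* at 35.1 RPKM, and *Tmem119* and *Cx3cr1* at 0. It also carried 13 of the 17 *Ccl2* reads found in microglia. Another 2 nuclei had 7 of the border macrophage markers, one labelled Ehmt1Δ/+ with 3 *Ccl12* reads and one WT with 32. The WT one had *Cx3cr1* at 49.5 RPKM. A nucleus of the 384-well pool labelled Ehmt1Δ/+ had 6 of the markers and no *Ccl12* read. The remaining nucleus, WT, had 2 of the markers, no *Ccl12* read and *P2ry12* at 642 RPKM. Together, the 5 nuclei with 2 or more border macrophage markers held 67.3% of all *Ccl12* reads in microglia, against 8.13% of those of *Ccl6*, 1.36% of those of *Ccl3* and none of those of *Ccl4*. The summed mean level of the 7 markers in microglia was 57.6, 178.7, 0.158, 78.4, 7.96 and 4.96 RPKM in the 6 pools.

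Without these 5 nuclei, *Ccl12* was above 0 in 5 of 34 WT microglia and 11 of 30 labelled Ehmt1Δ/+ in the 96-well plates, and its mean was 2.59 and 23 RPKM. Among nuclei with none of the 7 markers above 0, the counts were 5 of 28 and 4 of 15. Among nuclei with exactly 1 of them, most often *Mrc1*, the counts were 0 of 6 and 7 of 15. *Mrc1* encodes the mannose receptor, and apart from the 5 nuclei it was above 0 in 4 of 34 WT microglia and 13 of 30 labelled Ehmt1Δ/+. In the 384-well pools, again apart from those nuclei, *Mrc1* was above 0 in 1 of 16, 3 of 18, 1 of 20 and 8 of 23 microglia. In the 384-well pools, all 3 *Ccl12*-positive microglia (2 labelled Ehmt1Δ/+ and 1 Ehmt1Δ/+; iTg) had none of the 7 markers above 0. The mean level of *Ccl12* and the summed level of the markers were both higher with the Ehmt1Δ/+ label between the WT and Ehmt1Δ/+ pools of each plate format, but not between iTg (0 and 7.96 RPKM) and Ehmt1Δ/+; iTg (5.59 and 4.96 RPKM). The part of the markers in the 96-well *Ccl12* values beyond these counts was not tested.

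**Figure D3:**
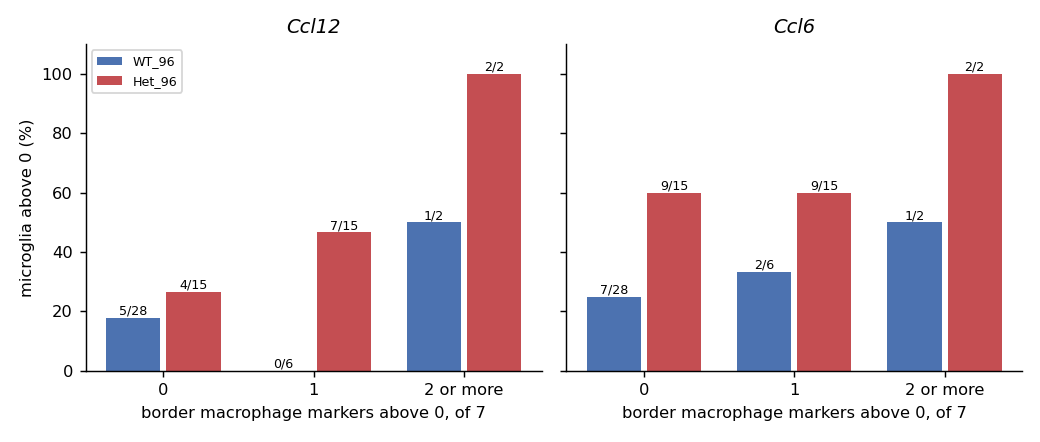
Share of microglia of the 96-well pools above 0 for *Ccl12* (left) and *Ccl6* (right), by the number of 7 border macrophage markers above 0, with counts over the bars, which start at 0. For *Ccl12* the counts are 5 of 28 and 4 of 15 with no marker and 0 of 6 and 7 of 15 with 1, and for *Ccl6* they are 7 of 28 and 9 of 15 with no marker.

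*Ccl6*, a CC chemokine of myeloid cells that binds CCR1, was more evenly spread. It was above 0 in 10 of 36 WT microglia and 20 of 32 labelled Ehmt1Δ/+ in the 96-well plates, or 27.8% (14.2 to 45.2) and 62.5% (43.7 to 78.9). In the 384-well pools it was above 0 in 2 of 16, 2 of 19, 0 of 20 and 4 of 23 microglia. Its mean level was 4.72, 11.4, 3.23, 7.0, 0 and 6.68 RPKM in the 6 pools.

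In neurons, which lack the microglial markers, *Ccl6* was above 0 in between 0.654% and 1.51% of nuclei of a pool, with at most 3 reads, at median depths in the 96-well plates of 343803 and 352622 reads. The positive microglia carried between 6 and 28 *Ccl6* reads in the 96-well WT pool and between 1 and 41 in the pool labelled Ehmt1Δ/+, with medians of 14.5 and 18 reads. The top nucleus held 17.6% and 12.1% of the reads of these pools. In the 384-well pool labelled Ehmt1Δ/+, by contrast, 1 nucleus held 93.3% of the 15 *Ccl6* reads, and without the top nucleus the means of WT and Ehmt1Δ/+ there were 0.568 and 0.777 RPKM. The difference in share between the 96-well pools was 34.7 percentage points, and it was 35 points among nuclei with no border macrophage marker above 0. The column names of the 96-well pools carry plate codes, of which 3 occur in both genotypes. In these the shares of *Ccl6* were 14.3% (WT) and 58.3%, 25% and 66.7%, and 37.5% and 66.7%, so the pool labelled Ehmt1Δ/+ was higher in each, from 6 to 12 nuclei a set. For *Ccl12* they were 14.3% and 41.7%, 37.5% and 33.3%, and 25% and 55.6%, higher in 2 of the 3. The labels do not say that a shared code is a shared plate or batch. The codes thus split 1 pool per genotype into subsets, which are neither matched pairs nor replicates. With each nucleus of the 96-well pools thinned to 32732 reads, close to the depth of the other plates, the share expected above 0 was 16.7% (WT) and 37.2% for *Ccl6*, and 5.87% and 17.3% for *Ccl12*. At the same depth in the 384-well pools, with 3 WT and 4 Ehmt1Δ/+ nuclei left out as shallower, it was 11.51% and 12.1% for *Ccl6* and 0% and 12.6% for *Ccl12*, so the *Ccl6* gap of the 96-well pools was not seen there.

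**Figure D4:**
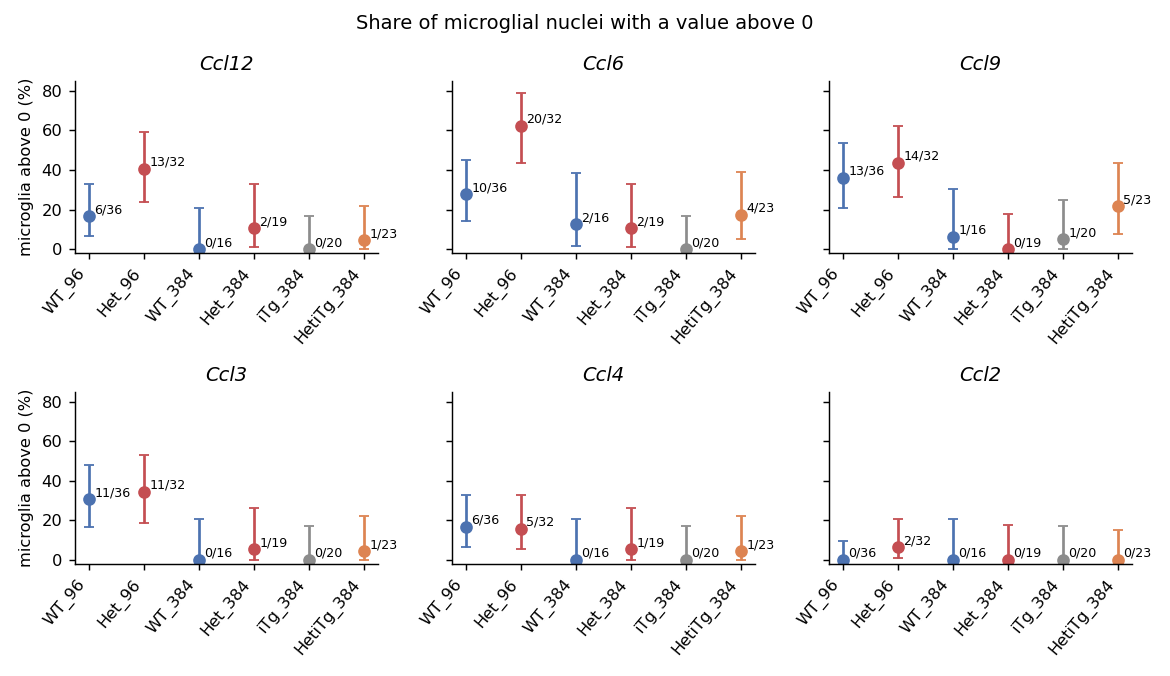
Share of microglial nuclei above 0 (percent) for the 6 CC genes in each pool, with exact 95% intervals for counting error and the counts beside the points. *Ccl6* and *Ccl12* show the widest gaps in share between the 96-well pools, and the intervals of these pools overlap for all 6 genes.

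*Ccl9*, a close relative of *Ccl6* that also binds CCR1, was above 0 in 13 of 36 and 14 of 32 microglia of the 96-well pools and in 1 of 16, 0 of 19, 1 of 20 and 5 of 23 of the 384-well pools. Its mean level was 7.69, 5.41, 1.29, 0, 0.330 and 4.07 RPKM. The 96-well pools therefore differed little in share, and the mean was higher in WT, where the top nucleus held 125.2 reads. Most nuclei above 0 for *Ccl9* were neurons, with 4.90% to 8.21% of the neurons of each pool and mean levels of at most 0.0938 RPKM. Fractions of a read were common: 50.7% of the values above 0 of *Ccl9* were not whole reads, whereas all of those of *Ccl12*, *Ccl2*, *Ccl3*, *Ccl4* and *Ccl6* were. The source of the divided *Ccl9* reads was not tested, and no other annotated gene overlaps its exons.

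*Ccl3* and *Ccl4*, which encode MIP-1α and MIP-1β, lie 13.2 kb apart. *Ccl3* was above 0 in 11 of 36 and 11 of 32 microglia of the 96-well pools, and *Ccl4* in 6 of 36 and 5 of 32. In the 384-well pools both had positive microglia only in those labelled Ehmt1Δ/+ and Ehmt1Δ/+; iTg, with 1 nucleus each and from 1 to 4 reads. The mean level of *Ccl3* was 5.59 and 12.9 RPKM in the 96-well pools, and that of *Ccl4* was 7.47 and 20.2 RPKM.

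One nucleus labelled Ehmt1Δ/+ stood at 248.9 RPKM for *Ccl3* (82 reads) and 394.5 RPKM for *Ccl4*, with 59.4% and 58.03% of the reads of its pool. Without the nucleus of the highest RPKM in each pool the means of *Ccl3* were 4.47 and 5.29 RPKM, and the log2 ratio was 0.24 in place of 1.19. For *Ccl4* the means were then 4.16 and 8.10 RPKM, and the log2 ratio was 0.95 in place of 1.42. The pair was found in the same nuclei: of 13 microglia above 0 for *Ccl4*, 10 were also above 0 for *Ccl3*, which is 76.9% of the *Ccl4*-positive and 41.7% of the *Ccl3*-positive nuclei. *Ccl6* and *Ccl9* were together in 19 microglia, or 50% of the *Ccl6*-positive and 55.9% of the *Ccl9*-positive nuclei. *Ccl12* was found with *Ccl6* in 12 microglia, 54.5% of its 22 positive nuclei and 31.6% of those of *Ccl6*, and with *Ccl3* in 7. These overlaps are across nuclei of unequal depth and are given as counts.

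*Ccl2*, the monocyte chemoattractant MCP-1, was above 0 in 2 microglia, both labelled Ehmt1Δ/+ in the 96-well plates, with 13 and 4 reads. Single neurons of 4 pools carried 1 or 2 *Ccl2* reads, and an oligodendrocyte carried 4. *Cxcl10*, an interferon-induced chemokine, was at 0 in all microglia and had 10, 4, 1 and 0.5 reads in 4 neurons. Over the 6 CC genes, 23 of 36 WT microglia and 30 of 32 labelled Ehmt1Δ/+ in the 96-well plates were above 0 for at least 1, or 63.9% (46.2 to 79.2) and 93.8% (79.2 to 99.2). In the 384-well pools these shares were 18.8%, 26.3%, 5% and 39.1%. The largest number in 1 nucleus was 4 of the 6 genes, in 3 WT nuclei and 5 labelled Ehmt1Δ/+.

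The genotype labels were compared across pools by limma on log2(mean RPKM + 0.1), with WT and Ehmt1Δ/+ of both plate formats, 4 pools, and the plate format as a term. In microglia, of 13686 genes tested, 0 were called at an adjusted p of 0.05 in either direction (percent called 0), and 1.93% had an unadjusted p under 0.05. Of the 8 chemokines only *Ccl12* and *Ccl6* passed the filter on low values, and *Ccl12* passed it only through the pools labelled Ehmt1Δ/+, where it was high. The log2 ratio of *Ccl12* was 5.37 ± 1.05 (SE, adjusted p = 0.92 by limma), made of 3.74 (96-well plates) and 7.0 (384-well plates), and in the latter WT was at 0 and the value depends on the added 0.1. That of *Ccl6* was 1.17 ± 0.46 (SE, adjusted p = 0.92 by limma), made of 1.25 and 1.09, the latter resting on the 1 nucleus named above. A ratio over 1 in both plate formats was found in 2.12% of the genes tested, in 0.0922% of those in neurons and in 0.569% of those in oligodendrocytes. Opposite signs in the 2 formats were found in 49.1% of the genes tested in microglia. The chemokines were chosen with that contrast known, so nothing is read from these shares.

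The effect of the neuronal transgene on microglia can be set beside this only as single pools. *Ccl12* was at 0 in WT and iTg, and at 12.7 RPKM in Ehmt1Δ/+ and 5.59 RPKM in Ehmt1Δ/+; iTg, from 10 and 4 reads. *Ccl9* was at 1.29 RPKM in WT and 0.330 RPKM in iTg, and at 0 in Ehmt1Δ/+ and 4.07 RPKM in Ehmt1Δ/+; iTg, from 4, 1, 0 and 13 reads. *Ccl6* was listed at 0 in iTg and at 3.23 RPKM in WT, from 4 reads. With counts of this size and 1 pool a group, no difference was tested.

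The receptors of several of these ligands were measured too. *Cx3cr1*, the receptor of fractalkine, was above 0 in 97.3% of microglia, 7.75% of neurons and 3.27% of oligodendrocytes, with means in microglia of 362.8, 244.1, 351.6, 247.5, 278.4 and 278.9 RPKM in the 6 pools. It was lower in the pool labelled Ehmt1Δ/+ in both plate formats (log2 ratio −0.54 ± 0.45, SE, adjusted p = 0.92 by limma). *Ccr1*, the receptor of *Ccl6* and *Ccl9*, had means of 3.46, 37.9, 3.12, 3.29, 0.227 and 16.6 RPKM and was above 0 in 4 of 36 and 17 of 32 microglia of the 96-well pools, all in whole reads. *Ccr1* was thus higher with the Ehmt1Δ/+ label in the 96-well plates and about level in the 384-well WT and Ehmt1Δ/+ pools (log2 ratios 3.42 and 0.07, adjusted p = 0.92 by limma for both formats together). *Ccr2*, the receptor of *Ccl2* and *Ccl12*, stayed at or below 4.03 RPKM in microglia, with 47.3% of its values not whole reads. *Ccr3* and *Cxcr3* reached means of 2.73 and 0.671 RPKM in microglia at most, each from 1 nucleus. The scavenging receptor *Ackr2* was above 0 in 12.3% of neurons and *Ackr1* in 86.8% of neurons, 42.1% of whose values were not whole reads.

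Among the other 30 chemokine ligands measured, 14 were at 0 in all microglia. By mean over the 6 pools, *Cxcl16* (9.86, 19.9, 7.51, 24.1, 9.34 and 9.94 RPKM), *Ccl5* and *Pf4* led in microglia. *Ccl5* rested on 1 WT nucleus, which held the whole mean of 47.6 RPKM, and *Pf4*, a border macrophage marker, on 3 nuclei. Of the T and NK cell markers in microglia of the 96-well WT pool, *Gzma* (85.25 RPKM) came from 1 nucleus. There, 99.9% of *Nkg7* (63.6 RPKM) came from 1 nucleus and *Cd3e* was at 0. Whether these were the *Ccl5* nucleus was not tested. In neurons, 10 of the 30 ligands were above 0 in over 10% of nuclei: *Ccl5*, *Ccl17*, *Ccl19*, *Ccl21a*, *Ccl21b*, *Ccl25*, *Ccl28*, *Cxcl12*, *Cxcl16* and *Cxcl17*. *Ccl19* values were not whole reads in 91.5% of the nuclei above 0, and *Ccl19*, *Ccl21a* and *Ccl21b* have close copies in this genome, so their levels are uncertain.

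None of the genes of the response lists was called in microglia. Of the 12 NF-κB response genes, 8 were tested, 4 were higher and 1 was lower with the Ehmt1Δ/+ label in both plate formats, and the median log2 ratio was 0.32, beside −0.02 and 25.1% higher in both formats over all genes tested. *Tnf* (117.95 RPKM over the 6 pools), *Nlrp3* (40.5 RPKM) and *Il1a* (29.7 RPKM) had the highest means. *Tnf* was above 0 in 97.96% of neurons and 98.99% of oligodendrocytes too, so it does not separate microglia. Of the interferon list 3 genes were tested, and *Usp18* had a mean of 4.02 RPKM and *Isg15* of 1.42 RPKM. Of the immediate early and stress list, which can mark handling of tissue, 3 were tested. Of these, 1 was higher and 0 lower with the Ehmt1Δ/+ label in both formats, and the median log2 ratio was −0.64. By mean, *Zfp36* (15.5 RPKM), *Junb* (9.17 RPKM) and *Jun* (8.69 RPKM) led in that list. *Adam10*, a protease that sheds fractalkine, was above 0 in 91.9% of neurons.

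*Cx3cl1* was above 0 in 99.2% and 99.6% of neurons of the 96-well pools and in every neuron of the 384-well pools. Its mean level in neurons was 67.3, 44.6, 68.3, 73.98, 62.4 and 71.8 RPKM. The 96-well pool labelled Ehmt1Δ/+ was the lowest, and the other 5 lay close together. In the 3 plate codes that both genotypes share, the means were 59.9 (WT) and 50.1 RPKM, 74.7 and 40.1 RPKM, and 72.1 and 33.6 RPKM, lower with the Ehmt1Δ/+ label in each. The codes are subsets of 1 pool per genotype and not replicates. In the 384-well plates the label went with a slightly higher level. Over both formats the log2 ratio was −0.24 ± 0.21 (SE, adjusted p = 0.74 by limma), and 0 of 23853 genes were called in neurons (percent called 0, with 2428 at an unadjusted p under 0.05).

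The class of neuron was not used to choose the gene, so *Cx3cl1* was tested between classes. Neurons with more *Slc17a7* than *Gad1* RPKM, which mark excitatory and inhibitory neurons, had means of 72.9, 47.8, 75.8, 78.2, 66.96 and 75.5 RPKM in the 6 pools. Those with more *Gad1* had means of 50.1, 29.3, 47.5, 54.3, 44.7 and 54.6 RPKM. *Cx3cl1* was higher in the excitatory class in 6 of 6 pools, by a mean log2 ratio of 0.58 ± 0.09 (SD, n = 6), or 1.497-fold (two-sided exact permutation test by sign flips, p = 0.03125, the smallest it can give). The class difference within a pool was larger than the SD of that difference over the pools. The class means themselves ranged from 47.8 to 78.2 RPKM and from 29.3 to 54.6 RPKM, so the classes overlapped across pools.

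**Figure D5:**
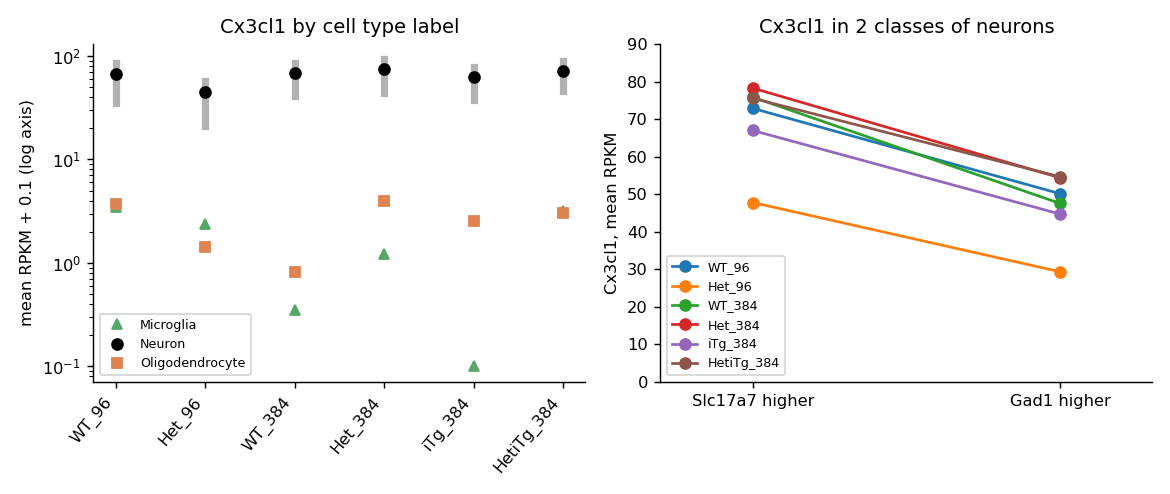
Left, mean *Cx3cl1* level (RPKM + 0.1, log axis) in neurons, microglia and oligodendrocytes of each pool, with the quartile range over neurons as grey bars. Right, mean RPKM in neurons with more *Slc17a7* or more *Gad1*, each line a pool, where all 6 lines fall from left to right.

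In glia *Cx3cl1* was low. Its means in microglia were 3.35, 2.26, 0.251, 1.13, 0 and 3.07 RPKM, from 12, 7, 1, 1, 0 and 5 positive nuclei, and in oligodendrocytes 3.62, 1.32, 0.715, 3.89, 2.46 and 2.92 RPKM. These are at most 5.39% of the level in neurons of the same pool. *Snap25*, a neuronal gene that glia should lack, was at 39.6% (WT) and 7.51% (Ehmt1Δ/+) of its neuronal level in microglia of the 96-well pools, and at 51.7 and 9.85 RPKM. *Cx3cl1* in microglia differed in the same direction there. In the 384-well WT and Ehmt1Δ/+ pools, *Snap25* in microglia was at 3.13 and 2.70 RPKM while *Cx3cl1* was higher with the Ehmt1Δ/+ label. The part of neuronal RNA in the *Cx3cl1* values of glia was not tested.

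Genes with a like pattern were sought over the 18 sets of cell type and pool, as a description, since the sets share pools and a gene at 0 in neurons and oligodendrocytes follows any other microglial gene. For *Ccl12*, the closest of 12564 genes were *Ctla2a* (Pearson's r = 0.99), *Mrc1* (0.99) and *Ccl4* (0.98). For *Ccl3* they were *Oas1g* (0.99), *Ccl4* (0.99) and *Slc14a1* (0.98), for *Ccl6* *Icos* (0.99), *Gbp5* (0.99) and *Casp12* (0.98), and for *Ccl9* *Ifi206* (0.97), *Ifi209* (0.96) and *Fbxo40* (0.96). For *Cx3cl1* they were *Cpne9* (0.98), *Ak5* (0.97) and *Kcnc1* (0.97).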

How the data were processed

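Adapters were removed with Fastq-mcf by the authors, who mapped reads of 75 nt to mm10 with HISAT2 2.0.4 and counted them per gene with featureCounts of Subread 1.5.0, left out nuclei of poor quality, and named cell types from UMAP clusters and markers. They deposited RPKM values (reads per kilobase of gene and library size of a nucleus) for 52636 genes, 1 column per nucleus. Groups came from the labels, and all 2207 columns matched a pool. Symbols were found for 49035 gene IDs. The read total of a nucleus was recovered as the inverse of the commonest value of RPKM times exon length (GENCODE M21), and values within 0.005 of a whole number were called whole reads. Since part of the values were fractions of a read, no count test was run. Fold changes are on the log2(mean RPKM + 0.1) scale, which understates those of low genes.

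Pool means were compared by limma 3.58.1 (R 4.3.3) at an adjusted p of 0.05 by the method of Benjamini and Hochberg, with a gene kept where, in WT or in Ehmt1Δ/+, 10% or more of nuclei had it above 0 in both formats. The steps were tested on simulated data. Shares have exact 95% intervals, and 3 counts limit a share of 0. Nuclei were also thinned to 32732 reads, the 10th percentile over microglia. Genes named besides the members were those of fixed lists with the highest mean in microglia (3 a list), the receptors of the 8 ligands, and those above 0 in over 10% of neurons or oligodendrocytes. The members and lists were chosen with earlier results of these data known. Genes of the lists with no row, such as *Csf1r* and *Adam17*, were not analysed here, and some results are not reported here. Other steps ran in Python 3.11.15 (SciPy 1.17.1). No genotype had a repeat pool within a plate format. The limma error of the main fit therefore reflects how far the Ehmt1Δ/+ to WT ratio differed between plate formats, with variances moderated over genes. Its p-values do not measure the spread between replicate pools of 3 mice each. The sign-flip p-value measures only how consistent the *Cx3cl1* class difference within a pool was over the pools.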

Additional observations from a re-analysis of the deposited data

Results flagged for a closer look

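*Cx3cl1* moved in opposite directions with the Ehmt1Δ/+ label in the 2 plate formats. In neurons its log2 ratio of Ehmt1Δ/+ to WT came to −0.59 (96-well plates) and 0.11 (384-well plates). In oligodendrocytes, where it is low, the ratios were −1.40 and 2.29. With 1 pool for each genotype and format the difference was not tested. Opposite signs were found in 41.4% of the genes tested in neurons and 47.5% of those in oligodendrocytes.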

How the results depend on the processing

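No paired analysis was possible because the replicate numbers of the nuclei only name them, and each genotype has 1 pool per plate format. Pairing was therefore limited to the plate format as a term of the fit and to the neuron classes within a pool. The calls of 0 genes in microglia and neurons held under the pseudocounts 1 and 0.01, no filter, all 6 pools and limma with trend, and in microglia without the nuclei with 2 or more border macrophage markers (chosen after seeing the data). In oligodendrocytes, limma with trend called 2 genes, neither of them a chemokine of this study, in place of 0. The cause was not tested. The share differences between the 96-well pools kept their sign for *Ccl12*, *Ccl6* and *Cx3cl1* under every alternative. For *Ccl12* the difference of 23.96 points was 20.5 with at least 2 reads, 11.4 after thinning and 8.81 without nuclei with any border macrophage marker, and 14.5 to 31.6 without 1 plate code. For *Ccl4*, −1.04 points became 2.37 after thinning and −5.69 to 6.93 without 1 plate code. For *Ccl9*, 7.64 points became −1.74 with at least 2 reads, −0.65 after thinning and −2.38 without nuclei with any border macrophage marker, and −6.38 to 15.7 without 1 plate code. For *Ccl3*, 3.82 points ranged from −4.63 to 13.5 without 1 plate code. For *Ccl2*, 6.25 points ranged from 0 to 8.70. The class difference of *Cx3cl1* was 0.56 to 0.60 (log2) without 1 pool, where 5 pools allow no p below 0.0625. With 1 plate format alone, *Cx3cl1* ranged from −0.59 to 0.11 in neurons and from −1.40 to 2.29 in oligodendrocytes. Microglia of the 384-well plates, at the lower depth given above, limit what can be said of the transgene.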
